A study of Mus musculus with 35 samples.

Results

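NRCWE-044 is a nanomaterial that the study names by code alone, and the step described here runs between its medium and its high dose, 18 and 54 µg. The arrays titled NRCWE-044 at 54 µg (5 arrays) were set against those titled NRCWE-044 at 18 µg (5 arrays), which together are 10 of the 35 arrays of the series. Both groups were female C57BL/6 mice, 5 to 7 weeks old, given a single dose of the material into the trachea in a volume of 40 µl, and lungs were taken 24 h later, on day 1. The other arrays hold lungs dosed with NRCWE-043 or NRCWE-045 at the same amounts and control lungs labelled 0 µg (5 arrays in each group). The labels do not say what the controls were given, and they place the RNA in random sections of 5 per group without saying that each array is a different mouse. The p-values below therefore measure the spread between these arrays.

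Each array carried lung RNA in red (Cy5) and a universal mouse reference RNA made from 11 cell lines in green (Cy3). A value is the log2 ratio of lung to reference for a probe, so that 0 means equal brightness, and a change is the difference of group means on that log2 scale, 54 µg minus 18 µg. A ratio depends on how much of the transcript the cell lines hold, so values of different genes are not compared with each other. Arrays are called by the replicate numbers of their titles, which are 4, 18, 24, 31 and 34 at 54 µg and 6, 11, 17, 21 and 23 at 18 µg. In these whole-lung samples, fewer cells of a type and less RNA per cell cannot be told apart.

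Particles that reach the alveoli are met by alveolar macrophages and epithelial cells, which release cytokines such as IL-1, TNF and IL-6. These cytokines induce acute phase proteins in epithelium as well as in liver, and they induce chemokines that draw monocytes, eosinophils and neutrophils into the lung. Type I interferon acts through a receptor of its own to turn on antiviral genes, and a secretory load in the endoplasmic reticulum turns on the chaperones of the unfolded protein response.

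Markers of lung were bright in both groups. Sftpc, the surfactant protein made by alveolar type 2 cells, had a log2 ratio of 8.23 ± 0.52 at 54 µg and 8.26 ± 0.28 at 18 µg (SD, n = 5 each). Scgb1a1, the secretoglobin of club cells, had 7.93 ± 0.48 at 54 µg and 8.07 ± 0.29 at 18 µg. Between 45.7% and 69.9% of spots were well above background in Cy5 at 54 µg, against 49.2% to 69.1% at 18 µg, and no spot was marked as saturated. The 35 arrays lay on 7 slides scanned on 6 days, and 3 slides held both groups. Within those slides the median change of the interferon list was 1.26, 0.87 and 0.74, that of the CC chemokines 2.07, 2.36 and 1.58, and that of the acute phase list 1.38, 1.36 and 1.46.

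Markers of tissues next to the lung were high on some of these arrays. The mean log2 ratio of 21 heart muscle genes was 1.57 on array 4 and 1.70 on array 18, against -0.08 to 0.61 on the other 54 µg arrays. Of the 18 µg arrays, 6 and 23 had 2.19 and 1.93 for the same genes, and the others had 0.01 to 0.46. Control arrays 2 and 29 were as high, with 1.98 and 2.20, against -0.065 to 0.038 on the other controls. The mean of 16 adipose genes was 4.09 on array 4 and 3.36 on array 34, against 0.70 to 0.98 on the other 54 µg arrays and 1.18 to 2.30 at 18 µg. Array 6 alone carried skeletal muscle genes, with a mean of 5.13 over 7 genes against -0.93 to -0.32 on the other 9 arrays, and genes of oesophagus and thyroid, with 2.48 against -0.02 to 0.16. List counts are also given without arrays 4, 6, 18, 23 and 34 (the 5 arrays) where that moved them by over 1.5 times, which leaves 2 arrays at 54 µg against 3 at 18 µg and so far fewer calls over all features (319). Of the 122 called genes named below or in the closing section, 55 passed without the 5 arrays. A fit of all arrays with the heart and adipose means as covariates gave 1766 calls, and 120 of the 122 genes passed in it. That fit held no term for skeletal muscle or for oesophagus and thyroid.

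**Figure D1:**
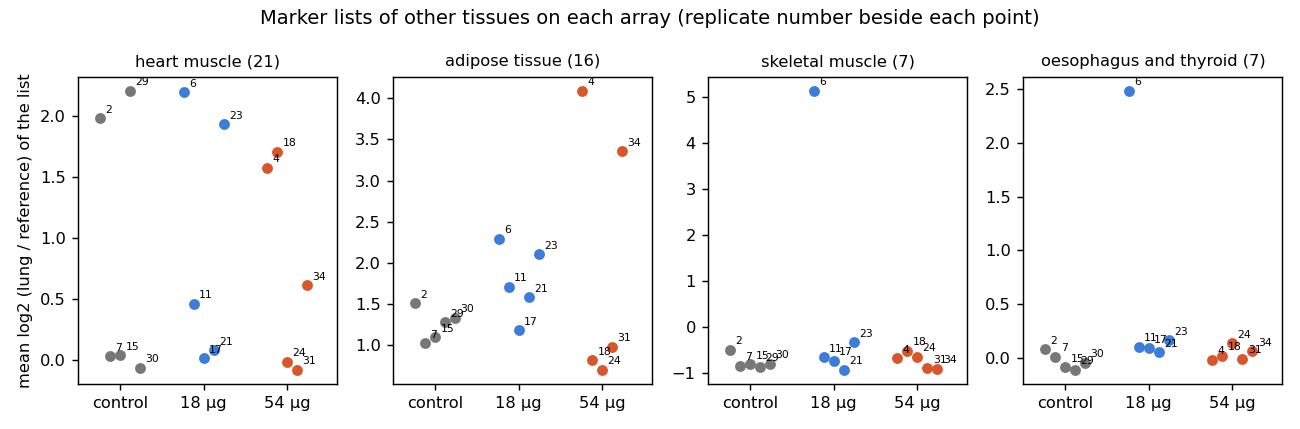
Mean log2 ratio of lung to reference RNA over the tested markers of 4 other tissues (number of genes in brackets), 1 point per array, with the replicate number beside it, for control, 18 µg and 54 µg of NRCWE-044. Heart muscle genes are high on arrays 6, 23, 4 and 18 and on control arrays 2 and 29. Adipose genes are high on arrays 4 and 34, and skeletal muscle and oesophagus or thyroid genes on array 6 only.

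Across 25534 features, 1664 (6.52%) differed between 54 and 18 µg by limma's moderated test with Benjamini-Hochberg adjusted p under 0.05. Of these, 1255 (4.92% of all features) were higher at 54 µg and 409 (1.6%) were lower. The median change was 0.61 among the higher and -0.49 among the lower features, against 0.03 over all features. All values of the 54 µg arrays lay above all values of the 18 µg arrays for 951 features (3.72%) and below them for 296 features (1.16%). Higher features were 75.4% of the calls. Centring each array on its median in place of the loess curve left 83 calls, 98.8% of them higher, and leaving out array 34 left 923.

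**Figure D2:**
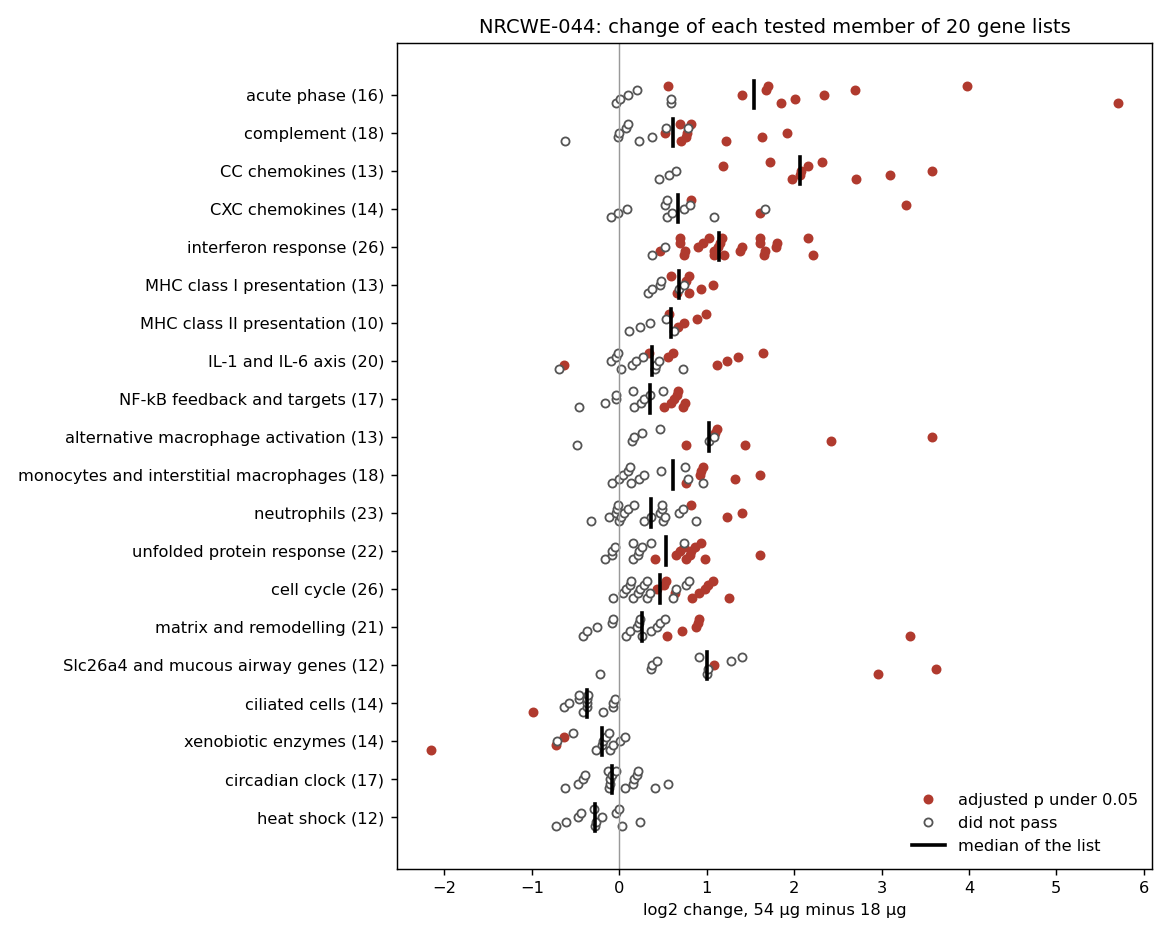
Change (log2, 54 µg minus 18 µg) of every tested member of 20 of the gene lists, with the number of tested members in brackets. Filled points passed an adjusted p of 0.05, open points did not, and the vertical bar is the median, which ranges from -0.37 for ciliated cells to 2.06 for CC chemokines.

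The acute phase list held the largest rise of any named gene. Of 16 tested members, 10 rose and none fell, with a list median of 1.54. Serum amyloid A proteins are carried on high-density lipoprotein and are the main acute phase reactants of the mouse. Saa3, the member made in tissues such as lung, had log2 ratios of 4.01, 3.20, 5.40, 4.11 and 5.58 on the 54 µg arrays (in the order 4, 18, 24, 31, 34), against -1.60, -0.41, -3.07, -3.67 and 2.52 on the 18 µg arrays (in the order 6, 11, 17, 21, 23). The change was 5.71 ± 0.99 (SE), or 52.2-fold, with an adjusted p of 0.00041. Array 23 stood above the other 18 µg arrays and still below every 54 µg array. The 5 controls ranged from -4.06 to 1.31.

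Saa1 had 3.28, 2.80, 4.36, 3.77 and 4.86 at 54 µg, against -0.70, -0.07, -0.82, -0.81 and 1.58 at 18 µg. Its change was 3.98 ± 0.59, with an adjusted p of 6.5e-05, and the groups did not overlap. Saa2, its near copy, changed by 2.70 ± 0.44, with 1 of 5 arrays above background at 18 µg, so that its low values are uncertain. Probes of close relatives such as Saa1 and Saa2, the Serpina3 genes or the Ifit genes can bind each other's RNA, so their separate values are uncertain. Among the carrier proteins and inhibitors of the acute phase, Orm2, an orosomucoid, rose by 2.35 ± 0.40. Serpina3n, an inhibitor of serine proteases, had 4.51 ± 0.25 at 54 µg and 2.81 ± 0.35 at 18 µg and rose by 1.70 ± 0.26, and Serpina3m rose by 2.01 ± 0.28. Lcn2, lipocalin 2, which binds bacterial siderophores and is also a neutrophil granule protein, rose by 1.41 ± 0.35 (adjusted p = 0.010) with overlapping groups. The 6 members that did not pass had changes from -0.04 to 0.60.

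Complement genes lay beside them, with 9 of 18 higher and none lower. Cfb, factor B, the protease of the alternative pathway convertase, had 5.11, 5.04, 5.25, 5.40 and 5.75 at 54 µg, against 3.32, 3.73, 3.66, 3.58 and 4.09 at 18 µg. It rose by 1.63 ± 0.17 with an adjusted p of 5.3e-07, and the lowest 54 µg array was well above the highest 18 µg array. The 5 controls, at 3.73 ± 0.26, covered the same range as the 18 µg arrays. C3, the central component that factor B acts on, had 4.61, 4.64, 4.53, 4.54 and 4.62 at 54 µg, against 1.95, 2.79, 2.47, 2.35 and 3.80 at 18 µg. It rose by 1.92 ± 0.27, and the 54 µg arrays were nearly equal while array 23 was again the highest at 18 µg. C1ra, a protease of the classical pathway, rose by 0.70 ± 0.11, and Cfp, properdin, which stabilises the alternative convertase, rose by 1.22 ± 0.27. Without array 34, 5 complement genes passed, and without the 5 arrays that carried other tissues 3 did.

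Chemokines that act on monocytes and eosinophils rose together. Of 13 CC chemokines, 10 rose and none fell, with a list median of 2.06. Ccl7, a ligand of the monocyte receptor CCR2, had -0.44, -0.36, -0.46, -1.38 and 0.25 at 54 µg, against -3.61, -3.33, -4.00, -4.70 and -2.23 at 18 µg, a rise of 3.09 ± 0.41. Ccl2, the best known CCR2 ligand, had -2.05, -1.80, -1.34, -2.52 and -0.90 at 54 µg, against -3.97, -3.79, -5.06, -4.90 and -2.47 at 18 µg. It rose by 2.32 ± 0.39 (adjusted p = 0.00032), with the lowest 54 µg array just under array 23. Ccl12, a further CCR2 ligand found in the mouse, rose by 1.98 ± 0.24 and Ccl8 by 2.71 ± 0.37, both with groups apart. Ccl4, a chemokine made by activated macrophages, rose by 2.07 ± 0.31, again with groups apart.

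The eosinophil-attracting members moved with them. Ccl24, eotaxin 2, had 2.42, 2.25, 1.00, 0.31 and 2.07 at 54 µg, against -1.57, -2.42, -2.58, -3.10 and -0.17 at 18 µg, and rose by 3.58 ± 0.66, or 12.0-fold. Ccl11, eotaxin 1, had 3.41, 3.49, 1.16, 1.86 and 2.82 at 54 µg, against 0.64, 0.26, 0.34, 0.14 and 1.05 at 18 µg, and rose by 2.06 ± 0.37, with 2 of 5 arrays above background at 18 µg. Without the 5 arrays neither eotaxin passed, with changes of 3.36 for Ccl24 (adjusted p = 0.061) and 1.26 for Ccl11. The 54 µg arrays with the lowest values of both were 24 and 31, the ones with the lowest heart muscle means, and on the slide that held arrays 24, 21 and 23 the difference for Ccl11 was 0.57. Ccr3, the receptor for both eotaxins, was higher on arrays 4, 18 and 34 (1.16 to 1.74) than on 24 and 31 (0.19 and 0.03), against -0.43 to 0.13 at 18 µg. It was the one called gene of 11 tested markers of eosinophils, basophils and mast cells (0.95 ± 0.22, adjusted p = 0.0055). That is 9.09% of the list, against 6.52% of all features. Prg2, a protein of eosinophil granules, changed by 0.60 ± 0.20 and did not pass. With the heart and adipose means of each array as covariates, Ccl24, Ccl11 and Ccr3 passed. Prg2 passed in that fit as well (0.59, adjusted p = 0.048 by limma). What set these arrays apart was not tested. Ccr3 did not pass without the 5 arrays (0.25), while 6 CC chemokines did.

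Of 14 CXC chemokines, 3 rose and none fell. Cxcl10, an interferon-induced ligand of CXCR3 on T and NK cells, had 1.20, 2.26, 1.17, 1.05 and 2.34 at 54 µg, against -1.89, -1.70, -1.92, -2.39 and -0.48 at 18 µg. Its change was 3.28 ± 0.47, or 9.72-fold (adjusted p = 4.0e-05), and every 54 µg array was more than 1.5 log2 units above array 23. Cxcl13, which guides B cells, rose by 1.61 ± 0.42 (adjusted p = 0.014), and its 2 highest arrays were 34 (4.71) and 4 (3.48), the arrays with the highest adipose means. Cxcl3, a ligand of the neutrophil receptor CXCR2, was not well above background on any 18 µg array and was at least 1.62-fold higher at 54 µg (adjusted p = 0.0014). Such a bound sets the bright group's mean against the dimmest signal still above background on each array of the dim group. The CXCR2 ligands Cxcl1 and Cxcl5 had larger but more variable changes that did not pass, 1.08 ± 0.40 (adjusted p = 0.11) and 1.67 ± 0.57 (adjusted p = 0.075). Cxcl16, a ligand and scavenger receptor on macrophages, changed by 0.52 ± 0.17 and did not pass. Of the 14, 6 passed without array 23 and 5 with slide or scan day as a block, and the count over all settings ran from 1 to 7. Cxcl13 did not pass without array 4, without array 34, under median centring or without the 5 arrays (1.01). With the 10 NRCWE-044 arrays fitted alone, neither Cxcl13 nor Cxcl3 passed.

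**Figure D3:**
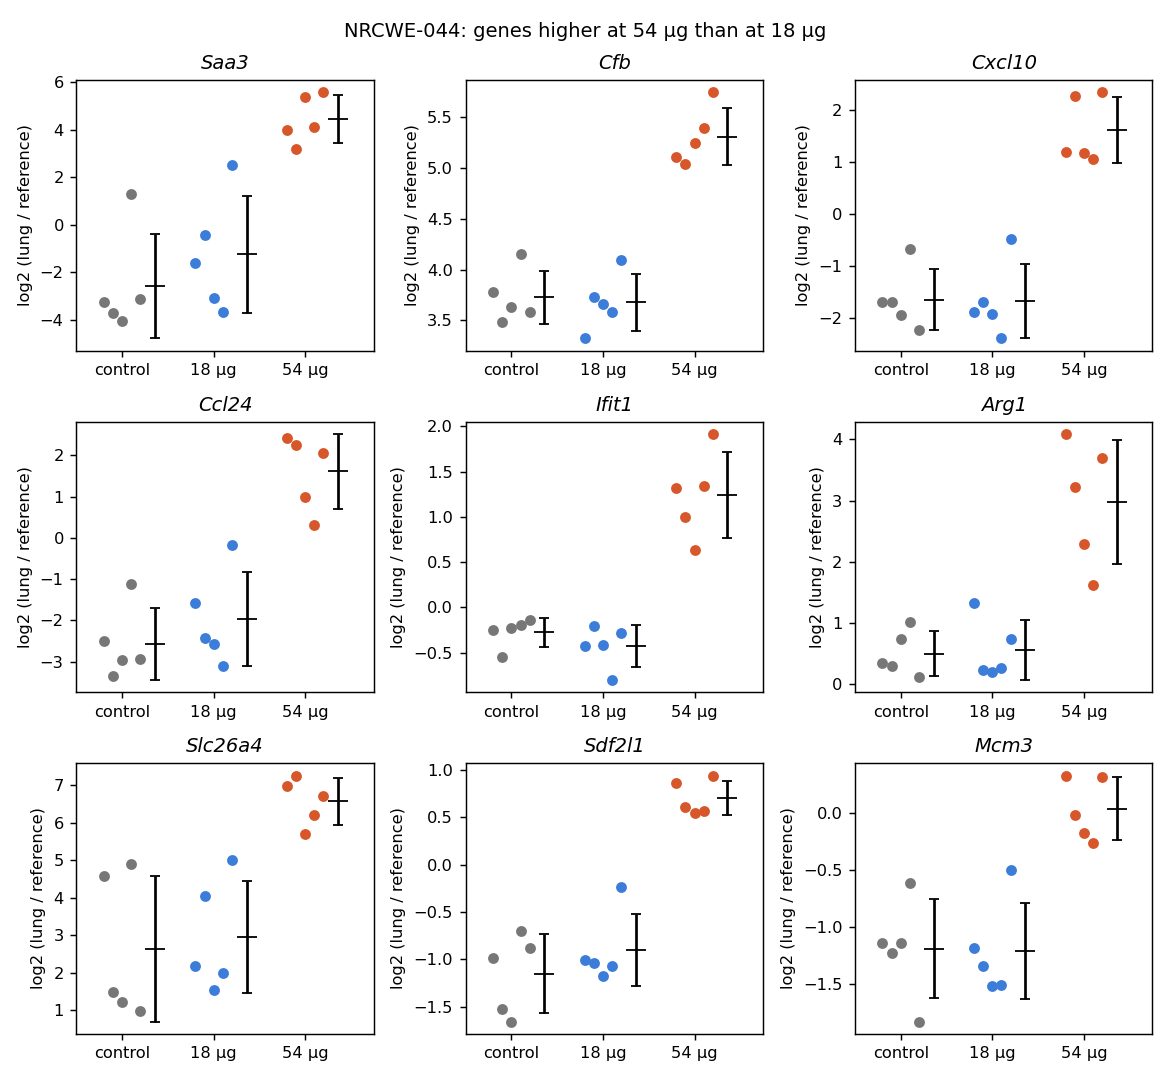
Log2 ratio of lung to reference RNA on each array for 9 genes that rose, in control lungs and in lungs given 18 or 54 µg of NRCWE-044 (points are arrays in replicate order, bars are mean ± SD of 5). In each panel the 54 µg points lie above all 18 µg points, and the 18 µg mean is within about 1 SD of the control mean.

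The interferon response was the list with the largest share of called members: 24 of 26 rose and none fell, 92.3% against 4.92% of all features. The list median was 1.14. Ifit1, which binds viral RNA, had 1.32, 1.00, 0.64, 1.35 and 1.92 at 54 µg, against -0.43, -0.20, -0.41, -0.80 and -0.28 at 18 µg, a rise of 1.67 ± 0.23 (adjusted p = 3.1e-05). The 18 µg arrays sat together near the control mean of -0.27 and the groups did not overlap. Isg15, a ubiquitin-like modifier, had 0.79, 0.44, 0.14, 0.74 and 1.54 at 54 µg, against -1.23, -1.07, -1.49, -1.78 and 0.23 at 18 µg, a rise of 1.80 ± 0.35. Array 23 at 18 µg was above array 24 at 54 µg for this gene. Irf7, the transcription factor that amplifies interferon production, rose by 1.61 ± 0.24 with its highest value, 1.30, on array 34. Oasl2, of the oligoadenylate synthetase family, rose by 1.66 ± 0.22. Zbp1, a sensor of Z-form nucleic acids, rose by 2.16 ± 0.32 on its brightest probe and by 0.63 on a dimmer one. Eif2ak2, the double-stranded RNA kinase PKR, had 0.47, 0.39, 0.26, 0.55 and 0.76 at 54 µg, against -0.80, -0.65, -0.49, -0.58 and -0.76 at 18 µg. Its rise of 1.14 ± 0.12 was among the most precise of these, with an adjusted p of 5.3e-07. Median centring left 5 of the 26 called, and leaving out the 5 arrays left 10, both with all calls higher.

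The promoters of Ifit1 and Isg15 are shown because both genes rose and both hold the interferon-stimulated response element in its core form, GAAANNGAAA, read on either strand. The windows are RefSeq promoters of build GRCm38.p6, from 250 bases before to 50 bases after the gene's start, and capitals mark the matches. Ifit1 lies at chr19:34640639-34640938 (plus strand) with matches starting 104 and 85 bases before the start, both on the opposite strand, and Isg15 at chr4:156200769-156201068 (minus strand) with 3 overlapping matches starting 78, 72 and 66 bases before the start.
Ifit1: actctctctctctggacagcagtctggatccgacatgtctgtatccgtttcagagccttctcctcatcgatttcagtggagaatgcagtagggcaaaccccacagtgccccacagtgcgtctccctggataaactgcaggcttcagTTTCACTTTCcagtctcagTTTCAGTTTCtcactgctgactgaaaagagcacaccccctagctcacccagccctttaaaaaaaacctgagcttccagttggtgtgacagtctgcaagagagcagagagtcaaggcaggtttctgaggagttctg
Isg15: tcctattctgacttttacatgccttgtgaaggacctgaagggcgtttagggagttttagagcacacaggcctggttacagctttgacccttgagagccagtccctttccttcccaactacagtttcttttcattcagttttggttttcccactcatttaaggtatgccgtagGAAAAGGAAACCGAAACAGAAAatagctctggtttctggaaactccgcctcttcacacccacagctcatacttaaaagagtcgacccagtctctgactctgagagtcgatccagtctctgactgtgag

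Of the 26 tested interferon genes, 21 had a RefSeq window and 12 of those held the motif, all 12 among the 20 of the 21 that rose. Over all 27025 genes with a window, 3.99% held it. A match describes these letters only.

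Genes of antigen presentation rose with the interferon genes. In the class I list, 7 of 13 rose and none fell, with a median of 0.68. Tapbp, tapasin, which loads peptides onto class I molecules, had 1.32, 1.18, 1.40, 1.46 and 1.47 at 54 µg, against 0.80, 0.81, 0.50, 0.72 and 1.02 at 18 µg, and rose by 0.60 ± 0.09. The change was small but no array of one group reached the other. Psmb8 and Psme1, an immunoproteasome subunit and its activator, rose by 0.77 ± 0.14 and 0.66 ± 0.13. In the class II list, 5 of 10 rose and none fell. The mean log2 ratio of that list was 2.984 to 3.368 at 54 µg and 2.268 to 2.751 at 18 µg. Controls, at 2.793 to 3.074, lay above every 18 µg array and overlapped the 54 µg group. H2-DMb1 and H2-DMa, which exchange peptides on class II molecules, rose by 0.99 ± 0.18 and 0.74 ± 0.18, and H2-Aa, a class II chain, by 0.89 ± 0.23. Without array 23, 11 class I genes passed, and without array 6 or array 34, 3 class II genes passed. No class I or class II gene passed under median centring, and without the 5 arrays 4 class I and none of the class II genes passed.

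Markers of monocytes and of alternatively activated macrophages rose in part. The list for monocytes and interstitial macrophages held 18 measured genes, of which 6 rose and none fell. Ccr2, the receptor that brings monocytes out of blood, had 2.59, 1.79, 1.44, 1.62 and 3.01 at 54 µg, against 0.67, 0.94, 0.69, 0.94 and 0.56 at 18 µg, a rise of 1.33 ± 0.24. Plac8, high in classical monocytes, rose by 1.61 ± 0.25, and Fcgr1, the high-affinity IgG receptor, by 0.96 ± 0.22. Arrays 4 and 34 were the highest for all 3 genes. Ms4a7, a membrane protein of tissue macrophages, rose by 0.92 ± 0.25 with overlapping groups. Of these markers 3 passed without array 34 and 1 without the 5 arrays.

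Of 13 genes of alternative activation, 6 rose and none fell. Arg1, arginase 1, had 4.09, 3.22, 2.29, 1.63 and 3.69 at 54 µg, against 1.33, 0.24, 0.21, 0.28 and 0.75 at 18 µg, a rise of 2.42 ± 0.35 (adjusted p = 4.0e-05). The groups did not overlap, and the probe was above background on 3 of the 5 18 µg arrays. Mrc1, the mannose receptor, also a marker of alveolar macrophages, had 5.26, 5.06, 5.33, 5.28 and 5.30 at 54 µg, against 3.46, 4.44, 4.24, 4.41 and 4.22 at 18 µg, a rise of 1.09 ± 0.22. Socs1, an inhibitor of cytokine receptor signals, rose by 1.44 ± 0.18. Of the 13 genes, 2 passed without the 5 arrays. Beside Mrc1, the alveolar macrophage markers Itgax (CD11c) and Ctsk (cathepsin K) rose by 0.81 ± 0.14 and 0.80 ± 0.20, in a list where 5 of 18 rose, the median was 0.11 and none passed without the 5 arrays. Batf3, a transcription factor of conventional dendritic cells, rose by 1.53 ± 0.22, and Ccr7, which takes dendritic cells to lymph nodes, by 1.04 ± 0.21, in a list where 3 of 10 rose. The other called member was Cd83, a maturation marker, just inside the threshold (0.84 ± 0.27, adjusted p = 0.0498), and it passed under 10 of 33 settings. Without the 5 arrays none of the 3 passed, with changes of 1.19 for Batf3, 0.77 for Ccr7 and 0.37 for Cd83. Ccr7 lay at 3.28 ± 0.15 at 54 µg and 2.24 ± 0.23 at 18 µg, while the 5 controls were at 3.09 ± 0.67. Fcer2a, the low-affinity IgE receptor of B cells, and Ly6i, of the Ly6 surface proteins, rose by 1.64 ± 0.23 and 2.41 ± 0.40.

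Cytokines rose less widely. In the list of the IL-1 and IL-6 axis, 7 of 20 rose and 1 fell. Il1b, the secreted cytokine of the inflammasome, had 1.89, 2.32, 1.93, 1.54 and 3.32 at 54 µg, against 0.27, 0.68, 0.51, 0.55 and 0.79 at 18 µg, a rise of 1.64 ± 0.29. Il6, which drives the acute phase response, was not well above background on any 18 µg array and on all 5 at 54 µg, and its difference passed (adjusted p = 0.0038), with no fold given against a group at background. Il33, an alarmin of type 2 cells and stroma, had 3.18 ± 0.60 at 54 µg and 1.83 ± 0.40 at 18 µg and rose by 1.35 ± 0.28. Tnf rose by 0.62 ± 0.13, with 1 of 5 arrays above background at 18 µg. The gene that fell was Il6ra, the receptor for IL-6, with 1.32 ± 0.23 at 54 µg and 1.96 ± 0.24 at 18 µg (-0.63 ± 0.14, adjusted p = 0.0051), and it was picked for mention after its value was seen. Without the 5 arrays 1 gene of this list passed.

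Of 17 NF-kB targets, 7 rose and none fell, all by less than 1 log2 unit. Tnfaip3, the A20 enzyme that ends NF-kB signals, rose by 0.75 ± 0.16 and Nfkb2 by 0.73 ± 0.16. The adhesion molecules Icam1 and Vcam1 rose by 0.67 ± 0.16 and 0.63 ± 0.15. None of them passed under median centring, 4 of the 17 passed without array 6 or array 34, and 1 passed without the 5 arrays.

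Neutrophil markers were called in 3 of 23 cases (13%, against 6.52% of all features), Lcn2, Cxcr2 and Retnlg. Cxcr2, the receptor that brings neutrophils to CXC chemokines, rose by 0.82 ± 0.22 and Retnlg, a resistin-like protein of neutrophils, by 1.23 ± 0.36, with overlapping groups in each case. Neither passed with slide (adjusted p = 0.057 and 0.055) or scan day as a fixed block or without the 5 arrays, and Retnlg passed under 19 of 33 settings. The list count was 5 without array 31 and 1 without array 34. The granule proteins S100a8 and S100a9 changed by 0.87 and 0.50 and did not pass. Mmp9, a granule protease, was not well above background at 18 µg and its fit did not pass (adjusted p = 0.051). All 24 lymphocyte markers had a change above zero, with a median of 0.35, and 2 were called (8.33%, against 6.52% of all features). These were Cd3d of T cells (0.70 ± 0.22) and Klra4 of NK cells (0.76 ± 0.24), both at an adjusted p of 0.047. The mean log2 ratio of the list was -0.03 to 0.52 at 54 µg and -0.27 to -0.10 at 18 µg. Controls, at -0.115 to 0.702, overlapped both groups. Cd3d passed under 11 of 33 settings and Klra4 under 20, neither passed without the 5 arrays, and Cd3d did not pass with slide as a fixed block (adjusted p = 0.11). Leaving out 1 array gave 0 (without any one of arrays 4, 6, 11, 18 or 34) to 5 calls (without array 31). Cd3d was at 2.25 ± 0.39 at 54 µg and 1.55 ± 0.30 at 18 µg, and the controls, at 2.40 ± 0.62, were nearer to the 54 µg group.

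Of 21 genes of matrix and remodelling, 6 rose and none fell. Timp1, an inhibitor of matrix metalloproteinases, had 1.60, 1.06, 1.63, 0.98 and 2.10 at 54 µg, against -2.14, -1.61, -2.87, -2.96 and 0.32 at 18 µg, a rise of 3.32 ± 0.57, or 10.0-fold. Array 23 was again the nearest to the 54 µg arrays. Fn1, fibronectin, rose by 0.92 ± 0.20, and the proteases Mmp19 and Mmp14 by 0.72 ± 0.15 and 0.54 ± 0.12, the last with 1 spot on array 23 dropped. The 15 members that did not pass, fibrillar collagens among them, had changes from -0.42 to 0.53. Without the 5 arrays 3 of the 21 passed, Timp1 among them, while Fn1, Mmp19 and Mmp14 did not (0.81, 0.61 and 0.59).

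Chaperones of the endoplasmic reticulum rose while cytosolic heat shock genes did not pass. Among the 22 unfolded protein response genes tested, 11 rose and none fell, with a median of 0.53. Sdf2l1, an ER protein that works with the chaperone BiP, had 0.85, 0.61, 0.55, 0.56 and 0.94 at 54 µg, against -1.01, -1.04, -1.17, -1.07 and -0.23 at 18 µg, a rise of 1.61 ± 0.22 (adjusted p = 2.2e-05). Array 23 was the one 18 µg array that stood out. Calr, calreticulin, a lectin chaperone that is also part of the class I loading complex, had 0.95, 0.90, 1.16, 1.24 and 1.47 at 54 µg, against 0.09, 0.07, -0.10, 0.15 and 0.80 at 18 µg, a rise of 0.94 ± 0.15. Hyou1, an HSP70-like ER chaperone, rose by 0.74 ± 0.11. Dnajb11, a BiP cofactor, rose by 0.76 ± 0.12 on its bright probe, and its dim second probe changed by 0.04. Pdia6, a disulfide isomerase, which was picked for its promoter, rose by 0.87 ± 0.15.

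The 11 members that did not pass, among them the transcription factors of the pathway, had changes from -0.17 to 0.74. Of 12 cytosolic heat shock genes none was called in either direction, and their median was -0.27. Median centring left 2 of the 22 ER genes called, and leaving out the 5 arrays left 6 higher and 1 lower.

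Promoters of Calr and Pdia6 are shown because both hold the ER stress response element, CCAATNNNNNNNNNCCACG, on either strand. They are RefSeq windows of GRCm38.p6 at chr8:84846882-84847181 (minus strand) and chr12:17266339-17266638 (plus strand), and capitals mark the match, which starts 162 bases before the start of Calr on the opposite strand and 98 bases before the start of Pdia6.
Calr: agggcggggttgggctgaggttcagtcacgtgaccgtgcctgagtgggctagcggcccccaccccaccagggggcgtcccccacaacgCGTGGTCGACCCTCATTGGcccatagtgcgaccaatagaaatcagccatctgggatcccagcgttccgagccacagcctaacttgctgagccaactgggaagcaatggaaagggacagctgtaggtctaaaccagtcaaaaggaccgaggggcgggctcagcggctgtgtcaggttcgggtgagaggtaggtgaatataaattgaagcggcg
Pdia6: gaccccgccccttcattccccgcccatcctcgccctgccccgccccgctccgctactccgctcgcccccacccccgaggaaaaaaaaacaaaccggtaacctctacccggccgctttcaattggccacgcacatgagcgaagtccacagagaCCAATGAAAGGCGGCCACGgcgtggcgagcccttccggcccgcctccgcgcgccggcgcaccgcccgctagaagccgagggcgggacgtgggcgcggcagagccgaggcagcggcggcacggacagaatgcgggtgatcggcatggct

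Of the 22 tested genes, 20 had a window, 7 of those held the element and 6 of the 7 rose. Over all genes with a window, 0.137% held it. Of the 20, 9 rose in all.

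Genes of DNA replication rose in part of the cell cycle list. Of 26 genes, 10 rose and none fell, with a median of 0.47. Mcm3, a subunit of the helicase that opens DNA at replication origins, had 0.33, -0.01, -0.18, -0.27 and 0.32 at 54 µg, against -1.19, -1.35, -1.53, -1.51 and -0.50 at 18 µg, a rise of 1.25 ± 0.21. The helicase subunits Mcm6 and Mcm5 rose by 1.07 ± 0.19 and 0.91 ± 0.16, and E2f1, a transcription factor of the G1 to S transition, by 0.83 ± 0.14. The 16 members that did not pass, most of them mitotic genes, had changes from -0.07 to 0.79. The count was 5 or 6 without any one of arrays 4, 17, 21 or 34, 5 with scale normalization between arrays or without the 5 arrays, and none under median centring.

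Oxysterol genes rose at both ends of a short path. Ch25h, which makes 25-hydroxycholesterol, had 2.86, 3.24, 2.41, 2.54 and 3.69 at 54 µg, against 0.65, 1.498, 1.13, 1.01 and 1.70 at 18 µg, a rise of 1.75 ± 0.27. Cyp7b1, which hydroxylates such oxysterols further, had 3.79, 3.36, 4.02, 3.88 and 4.94 at 54 µg, against 1.43, 1.81, 1.32, 2.00 and 3.05 at 18 µg, a rise of 2.08 ± 0.28 (adjusted p = 2.2e-05). Both had groups apart, and 2 of the 6 genes in the list were called. Ch25h changed by 1.26 without the 5 arrays and did not pass, while Cyp7b1 did. Cholesterol synthesis genes moved little, with 1 of 21 higher (Nsdhl, a sterol dehydrogenase, 0.54 ± 0.14) and 1 lower (Pmvk, phosphomevalonate kinase, -0.87 ± 0.24). Together they are 9.52% of that list, against 6.52% of all features. Idi1, an isomerase of that pathway, changed by 0.36 ± 0.13 and did not pass (adjusted p = 0.094). Without array 6, 4 cholesterol genes were called as higher, and without the 5 arrays none was called. No gene of 16 in fatty acid and triglyceride synthesis was called in either direction.

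Airway genes of ion transport and mucus were among the largest and the most variable rises. Slc26a4, pendrin, an exchanger of chloride for bicarbonate in inflamed airway epithelium, had 6.99, 7.26, 5.69, 6.21 and 6.72 at 54 µg, against 2.17, 4.04, 1.54, 2.00 and 5.01 at 18 µg. It rose by 3.62 ± 0.74, or 12.3-fold (adjusted p = 0.0020), the groups did not overlap, and the controls ranged from 0.97 to 4.89. Fxyd4, a regulator of the sodium pump, had 5.28, 5.40, 2.53, 3.96 and 4.81 at 54 µg, against 0.94, 1.23, 0.93, 0.91 and 3.19 at 18 µg, a rise of 2.95 ± 0.59 with arrays 24 and 23 overlapping. Muc4, a membrane mucin, rose by 1.08 ± 0.28 on its bright probe, while its dim probe changed by 0.13. AA467197, a small transcript also known as Nmes1, rose by 2.87 ± 0.46. On the slide of arrays 24, 21 and 23 the median of this list was -0.88, against 3.94 and 2.13 on the other slides that held both groups, and 3 of its 12 genes were called, none without the 5 arrays.

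Most other epithelial markers did not pass. The alveolar type 2 list, with 3 of 14 higher, is given in the closing section. Pdpn, podoplanin of alveolar type 1 cells, rose by 0.95 ± 0.18 and was the one called gene of 9 in its list. Of 14 ciliated cell genes, all 14 had a change below zero, and 1 passed, Mlf1 (-0.99 ± 0.24), whose highest value was 2.74 on array 6. Of 10 club cell genes 1 was called, Aldh1a1, retinal dehydrogenase, with 5.27, 5.17, 5.21, 5.63 and 4.83 at 54 µg, against 6.06, 6.50, 6.63, 6.52 and 6.11 at 18 µg, a fall of 1.14 on the log2 scale. The groups did not overlap. Sftpc and Scgb1a1, given above, changed by -0.03 ± 0.23 and -0.14 ± 0.20 and did not pass. Of 17 endothelial genes, Car4, a carbonic anhydrase of lung capillaries and alveolar macrophages, was the one called (0.67 ± 0.16). That is 5.88% of the list. The ciliated, club and alveolar type 1 lists had 7.14%, 10% and 11.1% called, against 6.52% of all features. Pdpn passed without the 5 arrays, while Mlf1 (-0.66), Aldh1a1 (-1.13) and Car4 did not.

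Several metabolic enzymes and a transporter were lower at 54 µg. Slc16a11, a monocarboxylate transporter, had 2.79, 2.34, 2.54, 2.74 and 2.23 at 54 µg, against 3.63, 4.04, 3.93, 3.87 and 3.33 at 18 µg, a change of -1.23 ± 0.20. Gstm1, a glutathione transferase, had 0.05, 0.17, 0.43, 0.40 and -0.04 at 54 µg, against 1.15, 1.19, 1.63, 1.46 and 0.75 at 18 µg, a change of -1.03 ± 0.18. Both genes were lower on every 54 µg array than on any 18 µg array. Ephx1, microsomal epoxide hydrolase, had 0.29 ± 0.12 at 54 µg and 0.93 ± 0.24 at 18 µg and fell by 0.64 on the log2 scale, and the 5 controls were higher than either at 1.43 ± 0.18. Of 14 xenobiotic enzymes 3 fell (21.4%, against 1.6% of all features) and none rose, and none passed under median centring or without the 5 arrays. Ces1e, a carboxylesterase, was among the 3 with a change of -0.73 ± 0.21, which turned to 0.26 with the signals processed by the scanner software. Ces1d, its neighbour in the family, changed by -0.71 ± 0.27 and did not pass.

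In the list of NRF2 targets, 1 of 14 rose and 2 fell. Gclc, the catalytic subunit for glutathione synthesis, rose by 0.68 ± 0.17 and did not pass without the 5 arrays (0.56). Gstm1 and Gsta2, both glutathione transferases, fell. Gsta2 had 0.57, 0.93, 0.55, 0.89 and 0.63 at 54 µg, against 4.20, 2.22, 2.47, 2.68 and 0.81 at 18 µg, a change of -1.76 ± 0.37, with array 23 inside the 54 µg range. Hmox1, heme oxygenase 1, had -3.49 ± 0.16 at 54 µg and -3.30 ± 0.61 at 18 µg and did not pass (-0.19 ± 0.32). Among zinc genes, the importers Slc39a8 and Slc39a14 rose by 0.95 ± 0.17 and 0.80 ± 0.15, while the metallothionein Mt2 changed by 0.80 ± 0.38 and did not pass. Mt2 passed without array 6 (1.27, adjusted p = 0.015), without arrays 6 and 23 (1.68) and without the 5 arrays (1.94).

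Several of the largest falls were made larger by array 6, the array with skeletal muscle and oesophagus or thyroid genes. Aldh3a1, an aldehyde dehydrogenase of squamous and corneal epithelium, had 0.19, -0.81, -0.66, -0.20 and -1.01 at 54 µg, against 4.08, 0.55, 0.79, 0.66 and 0.80 at 18 µg (-1.87 ± 0.43). Ly6g6c, a Ly6 surface protein, had 0.96, 0.76, 1.03, 1.35 and 0.86 at 54 µg, against 6.55, 1.48, 2.44, 2.06 and 1.05 at 18 µg (-1.72 ± 0.53). Perp, a desmosome protein, had -0.14, -0.26, -0.23, -0.36 and -0.62 at 54 µg, against 4.51, 0.27, 0.65, 0.50 and 0.24 at 18 µg (-1.56 ± 0.42). In all 3, array 6 was far above the other 18 µg arrays, which lay nearer to the 54 µg arrays. The same array was the highest for Gm10639 (2.00 against -2.20 to -1.11 at 18 µg) and for Cox6a2, a cytochrome oxidase subunit of heart and skeletal muscle (2.77 against 0.62 to 0.90). Without array 6 the changes were -1.20 for Aldh3a1, -0.77 for Ly6g6c, -0.74 for Perp, -0.72 for Gm10639 and -0.84 for Cox6a2. Of these, Ly6g6c no longer passed (adjusted p = 0.062) and the other 4 did. Ly6g6c passed under 19 of 33 settings, and it also failed without any one of arrays 4, 17, 18, 24 or 34. Myh7, a slow muscle myosin, fell by 1.11 on the log2 scale. With Cox6a2 it made up the 2 called of 21 heart muscle genes (9.52%, against 6.52% of all features), neither of which passed without the 5 arrays. Myh7 passed without array 6 and under 20 of 33 settings. It failed with slide as a fixed block and without any one of arrays 4, 11, 17, 18, 21 or 34. Myh6, the atrial and adult ventricular myosin of the mouse, changed by 1.24 ± 1.54 and Adipoq, the adipocyte hormone, by 0.98 ± 0.81, and neither passed.

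The other large falls were Gdpd2 (-1.48 ± 0.44), a phosphodiesterase, Hs3st6 (-1.35 ± 0.27), a heparan sulfate sulfotransferase, Tbx1 (-1.20 ± 0.25), a T-box transcription factor, and Vps51 (-1.13 ± 0.30), a subunit of a tethering complex. Gdpd2, Tbx1 and Vps51 did not pass without the 5 arrays. Gdpd2 passed under 22 of 33 settings, and it failed without any one of arrays 4, 11, 17, 18, 21 or 34. Vps51 also failed without array 4 or array 17. The groups of all 4 genes overlapped, in the case of Hs3st6 through array 23 alone, at 1.63 against 1.04 to 1.66 at 54 µg. Pi16, a peptidase inhibitor of adventitial fibroblasts, and Pdgfra, a growth factor receptor of fibroblasts, changed by -1.34 ± 0.34 and -0.54 ± 0.16 and were the 2 called of 15 markers of fibroblasts and smooth muscle. Bnip3, a mitochondrial protein induced by low oxygen, changed by -0.72 ± 0.13 as the one called of 16 genes of glycolysis and hypoxia. That is 6.25% of them, against 6.52% of all features. Trp53inp1 and Bbc3, p53 targets that promote cell death, changed by -0.63 ± 0.17 and -0.40 ± 0.12 and were the 2 called of 13 p53 targets. Neither passed with the 10 arrays fitted alone, without array 4, 11, 17 or 34, or without the 5 arrays. Pdgfra passed under 19 of 33 settings, and it failed without any one of arrays 4, 11, 17, 18, 21 or 34 and without the 5 arrays. Pi16 did not pass without array 6.

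**Figure D4:**
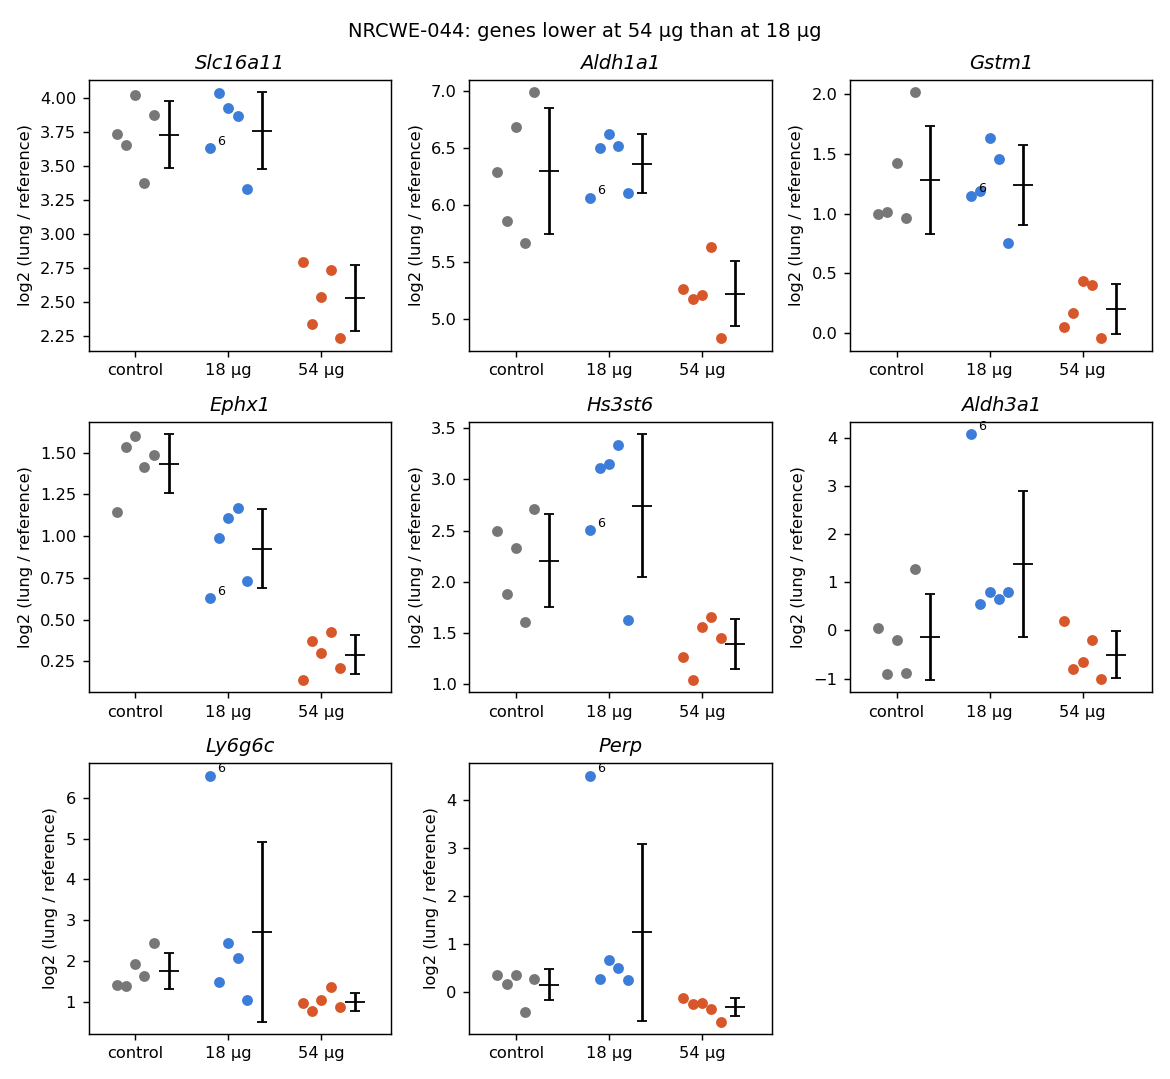
Log2 ratio of lung to reference RNA on each array for 8 genes that fell, in control lungs and in lungs given 18 or 54 µg of NRCWE-044 (points are arrays in replicate order, bars are mean ± SD of 5). The number 6 marks array 6, which is far above the other 18 µg arrays for Aldh3a1, Ly6g6c and Perp and within or at the low end of their range for the other 5 genes.

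Circadian clock genes and immediate early genes did not differ by the test. None of 17 clock genes was called, and Dbp, an output factor of the clock, had -2.29 ± 0.41 at 54 µg and -2.35 ± 0.29 at 18 µg. Nr1d1, the clock repressor REV-ERB alpha, had -1.67 ± 0.18 at 54 µg and -1.83 ± 0.24 at 18 µg. The 5 controls spread far wider for Dbp (-2.67 to 2.71). None of 17 immediate early and stress factors was called.

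The same step from 18 to 54 µg was measured for NRCWE-043 and NRCWE-045 on other arrays, with no array shared between the steps. By the same test 295 features (1.16%) were called for NRCWE-043 and 0 for NRCWE-045, where 976 had an unadjusted p under 0.05. The test of the difference between steps called 0 of 25534 features against NRCWE-043 (835 at an unadjusted p under 0.05) and 0 against NRCWE-045 (1142 at an unadjusted p under 0.05). The NRCWE-044 step thus had more calls, while no feature passed the test of the difference between steps. Of the 1255 features higher in the NRCWE-044 step, 96.7% also had a positive change in the NRCWE-043 step, against 52.4% of all features. In the NRCWE-045 step 95.9% did, against 49.8% of all features. Their median change was 0.33 in the NRCWE-043 step and 0.21 in the NRCWE-045 step, against 0.61 for NRCWE-044. Of the 409 lower features, 97.6% and 96.6% had a negative change in the NRCWE-043 and NRCWE-045 steps, against 47.6% and 50.2% of all features. The features were chosen on the NRCWE-044 arrays, which favours a larger NRCWE-044 median.

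For named genes the intervals of the difference were wide. Saa3 changed by 5.71 in the NRCWE-044 step and by 3.84 in the NRCWE-043 step, a difference of 1.87 with a 95% confidence interval from -1.01 to 4.75. Against the NRCWE-045 step, with a change of 3.18, the difference for Saa3 was 2.53 (from -0.35 to 5.41). Both intervals hold zero, and they are wide enough that they do not show that the materials act alike.

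The genes with the smallest p in these tests were larger in the NRCWE-044 step. Tapbp changed by 0.60 in the NRCWE-044 step and by 0.04 in the NRCWE-043 step, a difference of 0.56 (from 0.29 to 0.83, unadjusted p = 0.00016). Tnfsf13b, the B cell survival factor BAFF, changed by 1.14 in the NRCWE-044 step and 0.26 in the NRCWE-043 step, a difference of 0.88 (from 0.44 to 1.33). B3gnt9, a glycosyltransferase, and Coprs, a cofactor of an arginine methyltransferase, differed from the NRCWE-043 step by 0.62 and 0.48. Eif2ak2 differed by 0.66 (from 0.32 to 1.00) from the NRCWE-043 step and by 0.75 (from 0.412 to 1.096) from the NRCWE-045 step. None of these passed over all features.

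Against NRCWE-045, C1qtnf1, a secreted protein of the C1q and TNF related family, changed by 0.76 in the NRCWE-044 step and by 0.01 in the NRCWE-045 step, a difference of 0.74 (from 0.46 to 1.02, adjusted p = 0.13). On the arrays it had 1.07, 1.13, 0.74, 0.90 and 0.99 at 54 µg of NRCWE-044, against 0.40, 0.18, 0.15, 0.24 and 0.08 at 18 µg. Ccl12 differed by 1.40 (from 0.69 to 2.10), Cfb by 1.01 (from 0.530 to 1.497) and Trim30a, an interferon-induced regulator, by 0.81 (from 0.39 to 1.22). All of them had an adjusted p above 0.05, and C1qtnf1 was the feature that passed under 4 other settings.

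**Figure D5:**
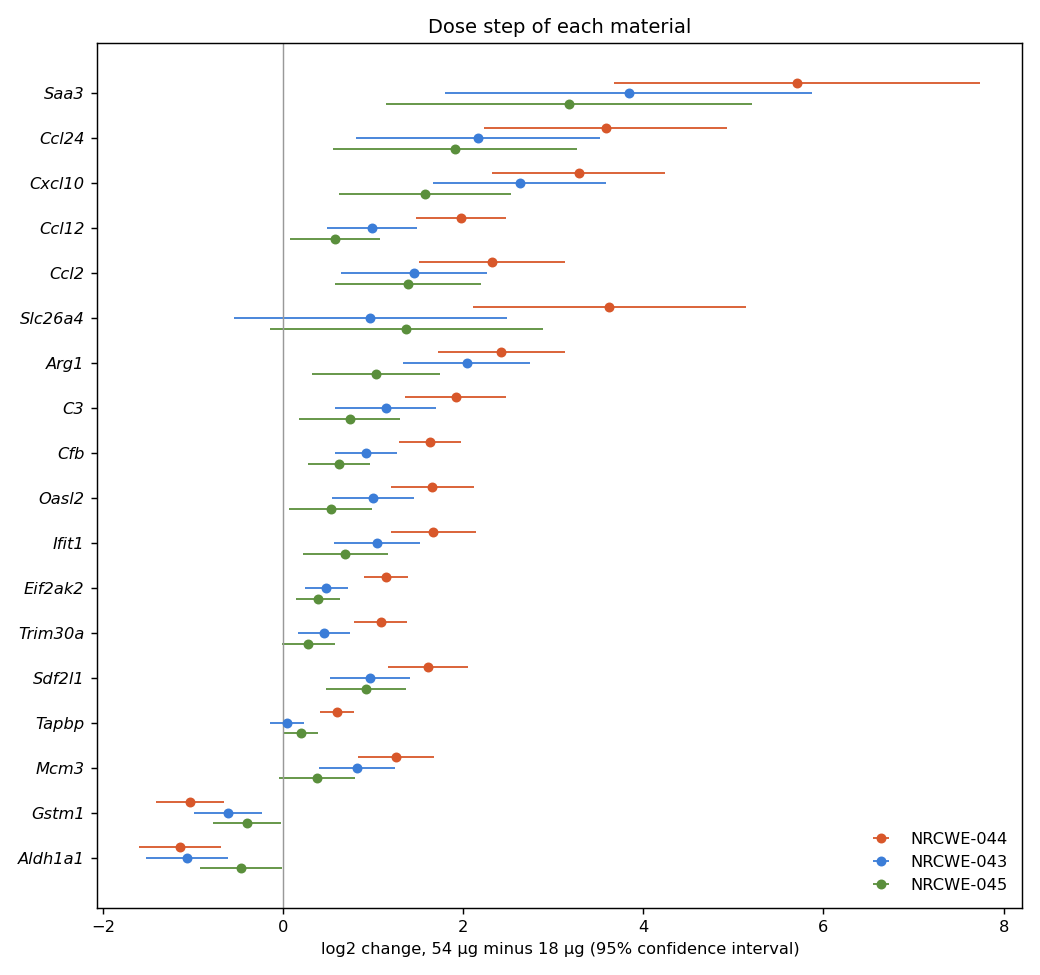
Change (log2, 54 µg minus 18 µg) of 18 genes in the steps of NRCWE-044, NRCWE-043 and NRCWE-045, with 95% confidence intervals over 5 arrays per group. All 18 genes were called in the NRCWE-044 step, and some were picked for a small p in the test of the difference between steps. That choice favours a larger NRCWE-044 change, and the NRCWE-044 point lies farthest from zero for each gene. No gene passed the test of the difference between steps.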

How the data were processed

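Lung RNA of 35 samples was hybridised to 2-colour Agilent mouse arrays, with Cy5 on lung and Cy3 on the reference in every sample and no dye swap, per the labels' protocols. The scanner files hold spot intensity as deposited, read by Feature Extraction 11.0.1.1 per the file headers, which also give mm9 as the build of the design. A deposited table of log2 ratios by the authors, with a normalization not given in the sources used here, correlated with loess ratios of the same arrays at 0.994 or more and served as an alternative.

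Median intensities were background-corrected by normexp (offset 50) and normalized within arrays by loess with 3671 control spots at weight 0, and spots marked as outliers were dropped. Of 55681 probes, 27235 had a symbol through RefSeq accessions. A probe was kept if 3 or more arrays of any group had it well above background in the Cy5 channel (34326 probes), and the brightest probe stood for each gene, giving 25534 features, of which 15621 had a symbol and the rest had none. For 3885 genes there was more than 1 tested probe, and a second probe is given above for Zbp1, Dnajb11 and Muc4 only. Second probes of other named genes also differed from the brightest. Examples are Hmox1 (0.39), Nsdhl (0.10), Trp53inp1 (-0.22) and Vcam1 (0.91). limma 3.58.1 in R 4.3.3 (data.table version 1.17.8) fitted all 7 groups, with 635 features missing a value on some array, and p-values were adjusted over all features (Benjamini-Hochberg). Changes carry standard errors, levels carry SD over 5 arrays, and the number of arrays limits the precision. The fit was tested on simulated data. "At least" folds use the Cy5 channel after loess and Aquantile, and they are open to dye bias, since no dyes were swapped.

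Named genes were the 15 largest changes in each direction past the threshold, up to 4 members with the smallest p per list, 29 fixed genes and the 5 genes with the smallest p in each comparison of steps, and 1 gene that the rule names is not reported here. Il6ra, Pdia6, S100a8 and S100a9 were added after their values were seen. The members and the 46 gene lists were chosen with earlier results of these data known, and list counts and medians are descriptions without a test. Alternatives changed background, normalization, filter, probe rule, blocks for slide and scan day, arrays in the fit and weights. Others added the heart and adipose means, or the share of spots above background, as covariates.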

Additional observations from a re-analysis of the deposited data

Results flagged for a closer look

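Single arrays far from the other 4 of their group were looked for in 286 groups of 5, for 139 genes and 4 tissue lists at both doses, and 22 were found by Dixon's criterion (0.71), where chance alone would mark about 1 group in 20. The values are log2 ratios.

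Array 34 was the highest at 54 µg for Ccl12 (2.751, the others 1.382 to 1.685) and Irf7 (1.301, the others 0.046 to 0.323). Array 18 was the lowest at 54 µg for Mrc1 (5.056, the others 5.261 to 5.330), and array 31 the lowest for Il6 (-1.655, the others -0.940 to -0.702) and Ctsz (-0.085, the others 0.199 to 0.308). Array 34 was the highest of the 54 µg arrays in 53.9% of the higher features, against 25.7% of all features.

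Array 23 was the highest at 18 µg for the complement gene Cfp (1.684, the others up to 0.936), the interferon gene Oasl2 (1.471, the others up to 0.588) and the epithelial gene Fxyd4 (3.195, the others up to 1.230). It was also the highest for the ER genes Calr (0.799, up to 0.154 in the others), Sdf2l1 (-0.235, up to -1.009), Dnajb11 (0.662, up to 0.079) and Pdia6 (0.778, up to 0.207). It was the highest 18 µg array in 39.0% of the higher features, against 17.6% of all features, and the lowest in 67.6% of the lower features, against 36.2%. It also had the brightest median Cy5 signal of the 10 arrays (345.5) and 1115 outlier spots, and its part in these values was not tested.

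Array 6 was the highest at 18 µg for Aldh3a1 (4.078, the others up to 0.801), Ly6g6c (6.549, up to 2.444), Perp (4.506, up to 0.654), Gm10639 (2.004, up to -1.113) and Cox6a2 (2.775, up to 0.904). The same array led in the means of the skeletal muscle genes (5.128, the others up to -0.324) and of the oesophagus and thyroid genes (2.484, up to 0.164). It was the lowest for Mrc1 (3.456, the others 4.216 to 4.440) and Lamp3 (2.656, the others 3.055 to 3.190). Array 11 was the lowest at 18 µg for Cxcl13 (0.754, the others 1.231 to 1.310).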

How the results depend on the processing

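The number of arrays limits the precision. Against the 1664 calls reported, the 10 arrays fitted alone gave 717 (86.6% higher) by limma. There were 83 with median centring, 807 when a change of 1.5-fold was also asked for, and 2665 with array weights (60.7% higher). Leaving out 1 array gave 923 (without array 34) to 2057 (without array 23, 61.3% higher), leaving out arrays 6 and 23 gave 2039 (57.5% higher), and leaving out the 5 arrays with markers of other tissues gave 319 (59.6% higher). The fits without arrays 6 and 23, without the 5 arrays, without control arrays 7 and 29 (1677) and with processed signals (1946) were chosen after seeing the data. The other settings gave 1130 to 2261 calls. Normexp on mean signals was not run, since the files used here hold no mean spot signal. No paired analysis was possible because the 2 groups share no replicate numbers; slide as a fixed or random block gave 2076 and 2261 calls (correlation 0.185). Against NRCWE-043, 0 features were called in every setting (148 to 1702 at an unadjusted p under 0.05), and against NRCWE-045, 1 (C1qtnf1) was called with deposited values (adjusted p = 0.015), array weights (0.00876), slide as a random block (0.044) and without array 24 (0.0426), so that leaving out 1 array gave 0 or 1. The cause of these moves was not tested.

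For 139 named genes, 4097 of 4585 values under an alternative kept direction and side of the threshold, 406 no longer passed, 54 passed anew and 28 changed sign. Of the called genes among them only Ces1e changed sign (0.264 with processed signals). The others that changed sign had not passed: Ces1d (0.183 with processed signals), Hmox1 (0.098 with the mean over probes, 0.074 with array weights, 0.237 without the 5 arrays, 0.196 without 6 and 23, and -0.360 to 0.037 leaving out 1 array), Scgb1a1 (0.136 with median centring, 0.268 with scale normalization), Sftpc (0.236, 0.417, 0.085 with Cy5 alone, 0.019 with the share above background as covariate, 0.038 with processed signals, 0.275 without the 5 arrays, and -0.234 to 0.122 leaving out 1 array), Dbp (-0.073 with scale normalization, -0.366 without the 5 arrays, and -0.042 to 0.210 leaving out 1 array), and, without the 5 arrays, Myh6 (-0.792), Adipoq (-0.606) and Prg2 (-0.062).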

Other observations

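Markers of alveolar type 2 cells and of phagocytes showed scattered rises, while the surfactant gene Sftpc, described above, did not pass. Of 14 type 2 cell genes, 3 rose and none fell (adjusted p by limma), with a median of 0.29. They were Il33, Cd74, the invariant chain of MHC class II, at 4.21 ± 0.11 at 54 µg and 3.64 ± 0.27 at 18 µg (SD, n = 5 each), and Lamp3, a protein of lamellar bodies and lysosomes, with a rise of 0.44 ± 0.13. Lamp3 passed under 18 of 33 settings. Of 20 lysosome and lipid handling genes, 5 rose, none fell and the median was 0.10. The cathepsins Ctsb and Ctsz rose by 0.61 ± 0.13 and 0.60 ± 0.11, and Marco, a scavenger receptor of alveolar macrophages, by 0.75 ± 0.19, with means of 5.51 at 54 µg, 4.77 at 18 µg and 5.37 in controls. Without array 34, 3 lysosome genes passed. Without the 5 arrays that carried other tissues, 0 type 2 cell genes passed, and 1 lysosome gene passed as higher and 1 as lower.

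Of 7 genes of the type 2 cytokine axis, 1 rose, Crlf2, a subunit of the TSLP receptor (0.76 ± 0.22). Of 7 genes of thymus and lymphoid tissue, 2 rose, Fcer2a and Madcam1, an adhesion molecule for lymphocytes (0.32 ± 0.10). Madcam1 passed under 18 of 32 settings. Of 16 adipose genes, Slc36a2, an amino acid transporter, was the one called (1.04 ± 0.20), which is 6.25% against 6.52% of all features. No gene of these 3 lists passed as higher without the 5 arrays, with Crlf2 at 0.62 and Slc36a2 at 0.68. Of 8 mesothelial genes, all 8 had a change above zero with a median of 0.33, and none passed. Of 9 erythroid genes, 7 of skeletal muscle and 7 of oesophagus and thyroid, none passed.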
